A study of Mus musculus with 45 samples.

Results

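Hearts of this mouse series differed widely in Adipoq, the transcript of adiponectin, a hormone made by fat cells, and the differences within each group were used to ask which other transcripts followed it. Within each of the 6 groups of the study, a heart whose Adipoq signal lay above the median of its group was called fat-rich and a heart below that median fat-poor. This gave 22 fat-rich and 22 fat-poor hearts of 45, and 1 heart, replicate 3 of RW-SS, lay at its group's median and was left out. The classes were thus chosen by the Adipoq values of these same arrays. For that reason the difference in Adipoq is a description with no test, and a p value of another gene refers to its association with Adipoq over these arrays, since no mouse was assigned to be fat-rich.

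All mice were male C57BL/6. The RW mice were of regular weight and on a feed with roughly 5 kcal% fat. The DIO mice had been made obese by a feed with 60 kcal% fat. From an age of 15 weeks the mice breathed filtered air (sham control, SC), mainstream cigarette smoke (MS) or sidestream cigarette smoke (SS) nose-only for 5 hours a day, in 8 exposures over 2 weeks, and the hearts were taken 1 day later. The groups held 8 hearts in RW-SC, 8 in RW-MS, 7 in RW-SS, 8 in DIO-SC, 6 in DIO-MS and 8 in DIO-SS, with 1 array per heart, and each group held as many fat-rich as fat-poor hearts. The labels say heart only, and which chambers were kept and whether fat, vessels or thymus were trimmed off is not stated there.

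White fat cells store triglyceride in a lipid droplet and secrete hormones such as adiponectin and resistin. Brown fat cells burn fatty acids and give off the energy as heat through the uncoupling protein Ucp1. In mice, fat lies on the surface of the heart and around the great vessels at its base, and the fat around the thoracic aorta has features of brown fat. In a whole heart, a higher signal of a fat cell transcript can come from more fat cells or from more of that transcript per fat cell, and these cannot be told apart here.

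Adipoq ranged from 4.07 to 11.24 on the log2 scale of the deposited values over the 45 arrays, and each unit is a 2-fold difference. In RW-SC the fat-poor arrays were at 6.09, 7.50, 7.54 and 8.73, and the fat-rich arrays at 9.38, 10.64, 10.81 and 11.21. In RW-MS they were at 4.07, 5.98, 6.68 and 9.80 against 10.17, 10.47, 10.64 and 11.02, and in RW-SS at 5.08, 8.46 and 9.19 against 9.58, 10.12 and 11.24. The RW hearts thus held both the lowest and the highest value of the series.

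In DIO-SC the fat-poor arrays were at 4.63, 4.90, 5.17 and 6.30 and the fat-rich arrays at 7.09, 9.35, 9.41 and 9.84. In DIO-MS they were at 5.88, 7.26 and 7.50 against 7.67, 9.43 and 9.61, and in DIO-SS at 7.08, 7.16, 7.31 and 7.83 against 8.06, 8.86, 8.93 and 10.66. The step across the median was small in several groups. The lowest fat-rich array lay 0.17 above the highest fat-poor array in DIO-MS, 0.23 in DIO-SS, 0.37 in RW-MS, 0.39 in RW-SS, 0.65 in RW-SC and 0.79 in DIO-SC. Since the medians differed between groups, 11 of the 22 fat-poor arrays were above the lowest fat-rich array of another group, and the classes are relative to the group. On average the fat-rich arrays were 2.91 higher in Adipoq, given as a description.

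**Figure D1:**
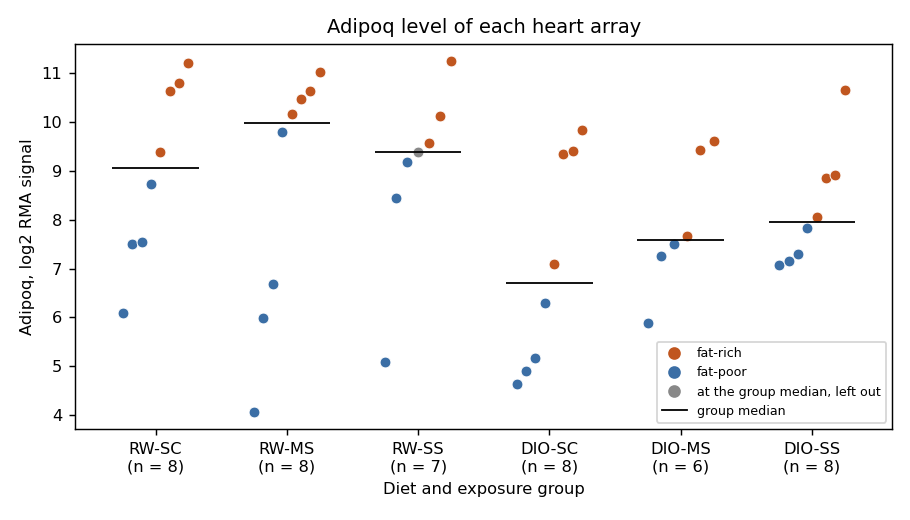
Adipoq signal (log2) of each of the 45 heart arrays, by group, with the group median as a line and points coloured by class. Values run from 4.07 to 11.24, and the arrays nearest to the median of DIO-MS, DIO-SS, RW-MS and RW-SS are less than 0.40 apart.

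The promoters of the rule's gene, of the gene with the largest rise and of a pair of fat synthesis genes that rose are shown to set side by side windows of genes that moved together. They are from RefSeq on GRCm38.p6 and run from 250 bases before to 50 bases after the start of the gene, 5′ to 3′ on its own strand. Capitals mark CCAAT on either strand (the reverse strand reads ATTGG), the box to which the factor NF-Y binds. Adipoq lies on chr16:23146286-23146585 (+ strand), Ucp1 on chr8:83290098-83290397 (+), Fasn on chr11:120824498-120824797 (−) and Thrsp on chr7:97417501-97417800 (−).
Adipoq: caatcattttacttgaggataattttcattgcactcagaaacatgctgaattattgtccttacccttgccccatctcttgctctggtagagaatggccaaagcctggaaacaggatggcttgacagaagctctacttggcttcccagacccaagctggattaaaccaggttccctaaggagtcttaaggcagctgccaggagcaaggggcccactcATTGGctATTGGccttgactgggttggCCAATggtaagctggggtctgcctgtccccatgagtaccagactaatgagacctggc
Ucp1: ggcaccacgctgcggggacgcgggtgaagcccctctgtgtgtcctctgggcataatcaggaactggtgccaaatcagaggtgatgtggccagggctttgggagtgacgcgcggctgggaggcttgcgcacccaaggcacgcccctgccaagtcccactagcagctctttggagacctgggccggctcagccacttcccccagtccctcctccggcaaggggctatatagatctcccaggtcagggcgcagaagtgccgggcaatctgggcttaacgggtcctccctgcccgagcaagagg
Fasn: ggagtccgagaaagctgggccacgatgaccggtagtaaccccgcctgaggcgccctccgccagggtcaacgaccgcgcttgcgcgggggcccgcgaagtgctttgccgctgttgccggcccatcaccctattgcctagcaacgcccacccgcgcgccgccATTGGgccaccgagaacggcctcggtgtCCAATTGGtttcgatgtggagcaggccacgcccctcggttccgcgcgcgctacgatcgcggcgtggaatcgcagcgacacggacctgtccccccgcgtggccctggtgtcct
Thrsp: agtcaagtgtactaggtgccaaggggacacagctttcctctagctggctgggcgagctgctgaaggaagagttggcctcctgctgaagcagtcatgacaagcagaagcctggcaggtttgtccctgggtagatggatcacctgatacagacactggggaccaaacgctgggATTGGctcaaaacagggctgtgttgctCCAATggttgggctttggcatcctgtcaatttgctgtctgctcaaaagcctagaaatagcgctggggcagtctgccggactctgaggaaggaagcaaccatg
The window of Adipoq held 3 CCAAT boxes, that of Fasn 3, a pair of which overlap on opposite strands, that of Thrsp 2 and that of Ucp1 0. Among all 32851 promoter windows of this length, 37.4% held at least 1. Of the 19 genes that rose at least 2-fold (below), 12 had a window, 15 windows in all, and 6 of these windows (40.0%) held CCAAT. The C/EBP-like letters TTGCNNAA, searched on both strands, were in 2 of the 15 (13.3%) against 10.8% of all windows, and CACGTG and TCACNCCAC were in 0 of the 15 against 7.15% and 1.24%. These shares are descriptions of letters in short windows.

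Before the other genes were compared, 3 arrays were found to stand apart. Replicates 2, 6 and 8 of RW-MS, all fat-poor, nearly lacked transcripts of the atrium: Sln (sarcolipin, the calcium pump regulator of atrial muscle) was at 4.47, 5.37 and 5.42 there, against 11.43 or more on every other array. Results that rest on these arrays are given with and without them. The array median was 6.20 to 6.24 in both classes, and the 3' to 5' difference of Gapdh, a sign of RNA integrity, was 0.21 to 0.40 in fat-rich arrays and 0.22 to 0.94 in fat-poor arrays, where 1 array, RW-SS 7, held the highest value.

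Of 9294 genes tested with group as a covariate, 572 followed the class at an adjusted p under 0.05 (limma, Benjamini-Hochberg over all genes), which is 6.15%: 382 (4.11%) were higher and 190 (2.04%) lower in fat-rich hearts. The changes were unequal in size. Of the genes that rose, 36 rose at least 1.5-fold and 19 at least 2-fold, while 0 of the genes that fell reached 1.5-fold, and the largest fall was -0.36 (Irx2). After a further quantile normalization the split was 356 higher and 405 lower. Without RW-MS replicates 2, 6 and 8 the count was 140 (123 higher, 17 lower; 1.51%), and with the mean signal of the atrial genes in the model it was 79 (73 higher, 6 lower; 0.850%). Without DIO-SC replicate 2 it was 380. Of the 19 genes that rose at least 2-fold, 18 passed without the 3 arrays and 18 with the atrial mean, and the exception was Ighm both times. 

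The gene with the largest rise was Ucp1, the heat-producing channel of brown fat. Its signal was 4.24 at the lowest, 5.31 at the median and 9.82 at the highest in fat-poor arrays, and 5.59, 9.24 and 10.87 in fat-rich arrays. The classes overlapped over all arrays, and within 4 of the 6 groups they did not. Over all genes, 0.108% were higher without overlap in 5 or 6 groups. The share for fewer groups was not counted, and such counts are descriptions. Ucp1 differed by 2.92 ± 0.39 (SE, 7.56-fold, adjusted p 4.74e-06), and by 2.56 without the 3 arrays (adjusted p 1.04e-04). In 2 fat-rich arrays Ucp1 stayed low: DIO-MS 1 was at 5.59 with Adipoq at 9.43, and DIO-SC 1 was at 5.63 with Adipoq at 7.09.

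Of the 20 tested white fat cell markers other than Adipoq, 14 were higher (against 4.11% of all genes) and 0 lower. Their median difference was 0.46, against -0.01 over all genes. These lists were chosen with earlier results of these arrays known. Car3, a carbonic anhydrase abundant in fat cells, was 6.48, 10.04 and 12.25 (lowest, median, highest) in fat-poor and 9.85, 12.30 and 13.54 in fat-rich arrays. It rose by 2.51 ± 0.32 (adjusted p 2.64e-06), and in 5 of 6 groups the classes did not overlap. Pck1, which makes the glycerol backbone for triglyceride in fat cells, rose by 2.25 ± 0.28 (adjusted p 1.37e-06), from a median of 4.67 to 7.55. Cidec, the protein that fuses lipid droplets in white fat cells, rose by 1.29 ± 0.19 (adjusted p 1.31e-05). Its medians were 5.45 and 6.94, and the classes were apart in 2 groups.

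Retn, which encodes the hormone resistin, was 5.56, 6.13 and 7.45 in fat-poor and 5.85, 7.45 and 9.72 in fat-rich arrays. It rose by 1.21 ± 0.18 (adjusted p 1.31e-05), and the highest fat-poor value lay near the fat-rich median. Adig (adipogenin) rose by 0.98, Orm1 (an acute phase protein of plasma) by 0.89, Gpd1 (glycerol phosphate dehydrogenase) by 0.74 and Aoc3 (an amine oxidase on the surface of fat cells) by 0.52. The regulators of fat cell identity rose less: Cebpa by 0.60 ± 0.11 (adjusted p 2.30e-04) and Pparg by 0.39 ± 0.07 (adjusted p 3.64e-04). Fabp4, the fatty acid binding protein of fat cells and also of capillary endothelium, was already at 12.78 to 13.14 in fat-poor arrays and rose by 0.17 ± 0.03 (adjusted p 4.51e-05). The lipase Lipe rose by 0.40, Thrsp, which promotes fat synthesis, by 1.001, and Sncg by 0.19. Among the markers that did not pass, Plin4, a droplet coat protein, differed by 0.05 and Dgat2, the last enzyme of triglyceride synthesis, by 0.01. Leptin was among the dim genes that were not tested.

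Of the 10 tested brown fat markers, 5 were higher (against 4.11% of all genes) and 0 lower, with a median of 0.24. Beside Ucp1 these were Slc27a2 (a fatty acid activating enzyme), Elovl3 (fatty acid elongation), Cidea (a droplet protein of brown fat) and Dio2 (which activates thyroid hormone). Cidea was 8.997, 9.50 and 10.42 in fat-poor and 9.36, 10.04 and 10.76 in fat-rich arrays, and it rose by 0.56 ± 0.10 (adjusted p 2.24e-04). Slc27a2 rose by 0.80, Elovl3 by 0.63 and Dio2 by 0.35, and the call of Dio2 (adjusted p 0.0318) was lost in 5 of the 44 fits that left out 1 array. Without RW-MS replicates 2, 6 and 8, Ucp1 and Cidea still passed and Slc27a2 (adjusted p 0.0667), Elovl3 (adjusted p 0.220) and Dio2 (adjusted p 0.218) did not. Cox8b, Cox7a1 and Ppargc1a, which heart muscle also expresses, were among the members that did not pass. They differed by -0.01, -0.03 and -0.05.

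Fat synthesis had 12 of 19 tested genes higher and 0 lower, with a median of 0.18. Scd1, which puts the double bond into fatty acids, was 7.30, 8.17 and 11.92 in fat-poor and 7.82, 10.83 and 12.81 in fat-rich arrays and rose by 2.04 ± 0.28 (adjusted p 5.75e-06). Fasn, the fatty acid synthase, was 6.70, 7.22 and 10.16 against 7.24, 9.29 and 11.55 and rose by 1.73 ± 0.23 (adjusted p 4.74e-06). Both overlapped between the classes over all arrays and were apart in 5 of the 6 groups. Of all genes, 0.108% were higher without overlap in 5 or 6 groups. Elovl6, the elongase that makes stearate, rose by 1.37 ± 0.23 (adjusted p 9.24e-05). Among the other members of the list, the pentose phosphate enzymes Tkt, Pgd and Taldo1 rose by 1.08, 0.30 and 0.21, and Acly, the citrate lyase that supplies acetyl-CoA, by 0.72. Srebf1, the transcription factor that drives these genes, rose by 0.21 ± 0.03 (adjusted p 6.70e-05).

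Further lists covered fat storage, uptake, hormones and oxidation, to be set beside 4.11% of all genes higher and 2.04% lower. Of the lipid droplet and lipolysis genes 5 of 15 were higher and 0 lower (Cidec, Cidea, Lipe, Bscl2 and Plin2), and the main triglyceride lipase Pnpla2 differed by 0.05 (adjusted p 0.351). Of the fatty acid uptake genes 3 of 12 were higher (Angptl4, Fabp4 and Cav1) and 0 lower. Without the 3 arrays 2 of the 12 passed, and Cav1 did not. Lpl, the lipoprotein lipase, was at 14.10 ± 0.04 (SD) in fat-rich and 14.11 ± 0.04 in fat-poor arrays, and Cd36, the fatty acid carrier, at 12.94 ± 0.17 and 12.95 ± 0.18. Of the fat hormones and their receptors 2 of 17 were higher (Retn, and Rbp4, the retinol binding protein, by 0.997) and 0 lower. The adiponectin receptor Adipor1 differed by -0.0024 and the leptin receptor Lepr by -0.10 (adjusted p 0.240). Fatty acid oxidation had 1 of 22 higher (Ehhadh, the peroxisomal enzyme, by 0.20), and Ehhadh did not pass without the 3 arrays. The respiratory chain had 0 of 21 past the threshold. These 1 of 22 and 0 of 21 are set against 6.15% over all genes.

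**Figure D2:**
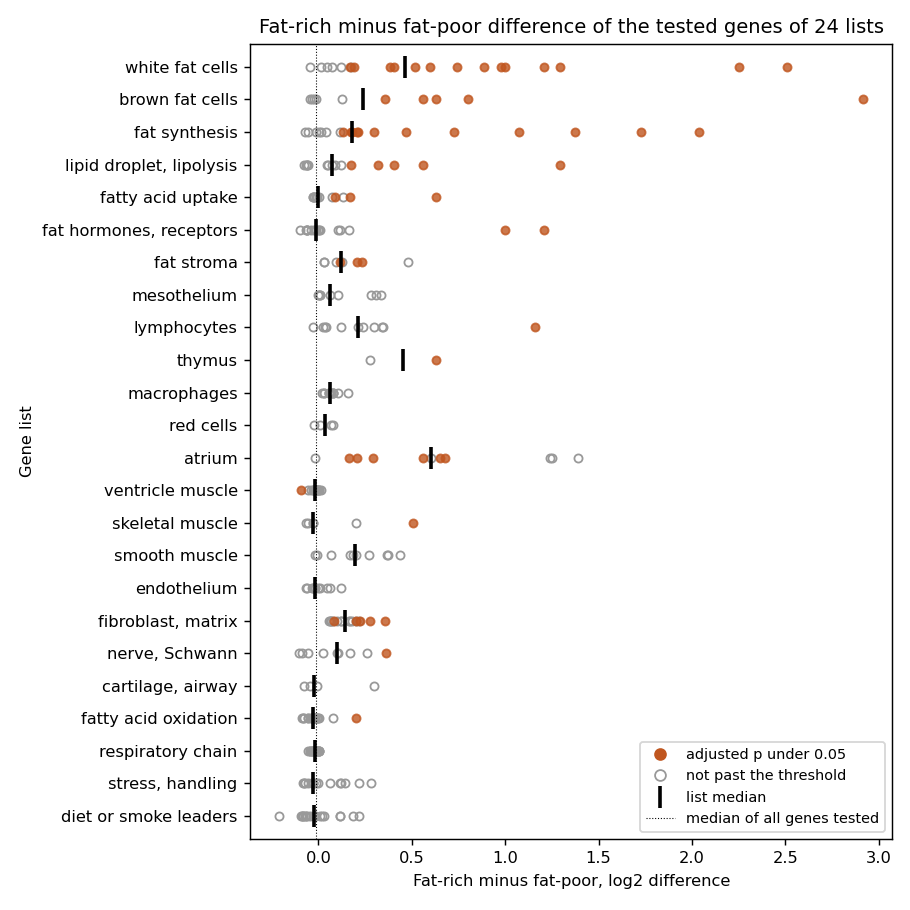
Log2 difference between fat-rich and fat-poor hearts for each tested gene of 24 lists, one row per list, with genes at an adjusted p under 0.05 filled and the list median as a bar. The filled points of white fat cells, brown fat cells and fat synthesis reach 2.51, 2.92 and 2.04, while the ventricle and respiratory chain genes lie near 0.

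Among the 15 largest rises, 6 were in none of the lists. Cdo1, the enzyme that turns cysteine towards taurine, rose by 1.86 ± 0.23 (adjusted p 1.37e-06), and Tmem45b, a membrane protein, by 1.75 ± 0.19, with the smallest adjusted p of all genes (1.13e-07). These were the 2 tested genes (0.0215%) whose fat-rich and fat-poor arrays did not overlap in any of the 6 groups. Hp, the haemoglobin scavenger haptoglobin, which liver and fat secrete, was 5.11, 6.45 and 7.79 in fat-poor and 6.48, 8.11 and 9.52 in fat-rich arrays and rose by 1.80 ± 0.22. Cyp2e1, a cytochrome P450, rose by 1.85, Pon1 (paraoxonase) by 1.40 and Apoc1, an apolipoprotein, by 1.35. Each of the 19 genes that rose at least 2-fold had a higher mean in the fat-rich arrays of all 6 groups, and 450 of all genes did. These 19 were picked for large rises over the same arrays. Their likeness to Adipoq over the 45 arrays, as the correlation of deviations from the group means, was highest for Car3 (0.99), Cdo1 and Hp (0.97 each), Cyp2e1 (0.96), Scd1 (0.95), Fasn and Pck1 (0.94 each), Ucp1 and Tmem45b (0.93 each) and Cidec (0.92). It was 0.87 for Retn and 0.56 for Ighm. These genes share their arrays with Adipoq, and the values are descriptions.

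**Figure D3:**
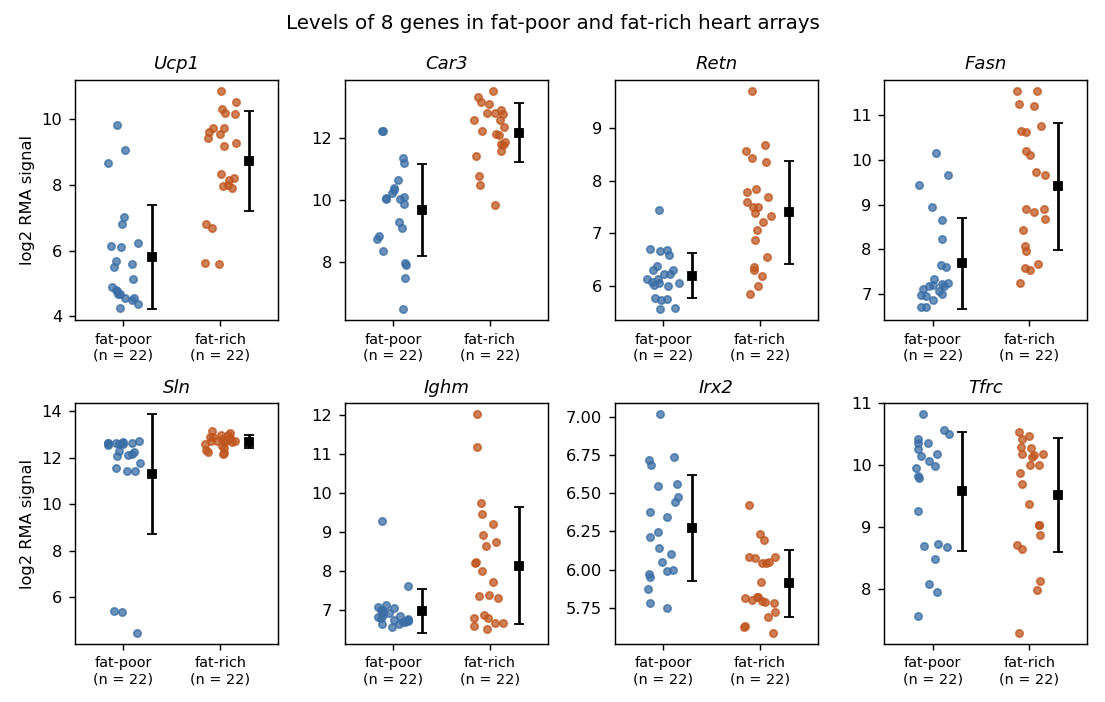
Log2 signal of 8 genes in the 22 fat-poor and 22 fat-rich arrays, 1 point per array, with the mean and SD as a black square and bars. Ucp1, Car3, Retn and Fasn are higher in fat-rich arrays, the 3 arrays low in Sln are fat-poor, the highest Ighm values (12.01 and 11.16) are fat-rich, and Tfrc is spread alike in both classes.

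Markers of the atrium moved with the class as well. Of 11 tested, 6 were higher (against 4.11% of all genes) and 0 lower, with a median of 0.60, the highest of any list. Without RW-MS replicates 2, 6 and 8 that median was 0.34, below white fat cells (0.42) and thymus (0.37). Sln was 4.47, 12.28 and 12.74 in fat-poor and 12.18, 12.73 and 13.16 in fat-rich arrays. Its difference of 1.39 did not pass (adjusted p 0.0574), and without RW-MS replicates 2, 6 and 8 it was 0.41 (adjusted p 0.0608). The mean of the list ranged from 6.80 to 10.47 in fat-poor and from 9.76 to 10.73 in fat-rich arrays. Dkk3 (a secreted Wnt regulator), Fgf12, Stard10, Pam (a peptide-processing enzyme of atrial granules), Kcnj3 (an atrial potassium channel) and Tbx5 (a cardiac transcription factor) were the genes that passed, and 0 of them passed without the 3 arrays. The correlation of the atrial mean with Adipoq, as deviations from the group means, was 0.69 over 45 arrays and 0.60 without those 3, as a description. Ventricle muscle had 0 of 16 genes higher and 1 lower, near the 6.15% called over all genes. Mybpc3, a myosin binding protein of the sarcomere, fell by 0.09 ± 0.03 (adjusted p 0.0256), and by 0.10 without the 3 arrays (adjusted p 0.0620). The part of atrial tissue in the differences of the fat genes was not tested beyond these fits.

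Lymphocyte transcripts were high in a few fat-rich hearts. Of 11 tested lymphocyte genes 1 was higher and 0 lower, against 6.15% called over all genes, with a median of 0.21. Ighm, the heavy chain of immunoglobulin M, was 6.54, 6.82 and 9.28 in fat-poor and 6.49, 7.85 and 12.01 in fat-rich arrays. It was the gene that passed and rose by 1.16 ± 0.31 (adjusted p 0.0214). The 3 highest values were in RW-SC 1 (12.01), RW-MS 7 (11.16) and DIO-MS 1 (9.74), and the classes were apart in 0 of the 6 groups. The mean of the lymphocyte list ran from 5.78 to 6.36 in fat-poor and from 5.77 to 7.96 in fat-rich arrays. The B cell receptor gene Cd79b did not pass (0.35, adjusted p 0.131). The thymus list had 2 tested genes, of which Cd1d1, a lipid-presenting molecule also made by fat cells, rose by 0.63. Without the 3 arrays of highest Ighm, which were chosen after their values were seen, 426 genes passed (341 higher, 85 lower). The part of lymphoid tissue in the other differences was not tested.

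A few connective tissue genes were higher. Of 18 fibroblast and matrix genes 5 were higher (against 4.11% of all genes) and 0 lower, with a median of 0.14. They were Mfap4 (0.36), Fn1 (fibronectin, 0.28), Col1a2 (a collagen chain, 0.22), Fbln1 (fibulin, 0.20) and Dcn (decorin, 0.08). Col1a1, the partner chain, differed by 0.08 (adjusted p 0.510). Of 8 fat stroma genes 3 were higher (Mfap5 by 0.23, Pi16 by 0.21 and Pdgfra, the receptor of fat progenitors, by 0.12). The calls of Pdgfra and Dcn were near the threshold (adjusted p 0.0453 and 0.0340) and were lost in 26 and 7 of the 44 fits that left out 1 array, and that of Pdgfra also without the filter on dim genes (adjusted p 0.0537). Without RW-MS replicates 2, 6 and 8, 0 genes of both lists passed. Of 9 nerve and Schwann cell genes S100b, also made by fat cells, rose by 0.36 ± 0.06 (adjusted p 8.60e-05) and 0 fell. Of the skeletal muscle genes 1 of 6 rose, Myl1 (0.51), a myosin light chain. The other lists had 0 genes past the threshold in either direction: 9 mesothelial, 12 macrophage, 4 red cell, 10 smooth muscle, 12 endothelial, 4 cartilage or airway and 17 stress or handling genes. With 6.15% of all genes called, 0 or 1 call in lists this short is near the share over all genes.

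The falls were small. Irx2, a homeobox factor of the ventricular septum, was 5.75, 6.23 and 7.01 in fat-poor and 5.59, 5.82 and 6.42 in fat-rich arrays and fell by 0.36 ± 0.08 (adjusted p 2.86e-03). It was lower in the fat-rich arrays of 5 of the 6 groups, without overlap in 3 of them, and passed without the 3 arrays (-0.32, adjusted p 0.0231) but not with the atrial mean in the model (-0.30, adjusted p 0.102). Its neighbour Irx1 fell by 0.25 ± 0.06 (adjusted p 7.11e-03), with adjusted p 0.0760 without them and 0.237 with the atrial mean. Next in size were Ung, the uracil DNA glycosylase (-0.19, adjusted p 3.82e-03), and Pkdrej (-0.19, adjusted p 1.69e-03). Hrh2, the histamine receptor of heart muscle, which was singled out after its values were seen, fell by 0.16 (adjusted p 2.55e-04). The 15 largest falls ended at Smyd2, a methyltransferase (-0.16). Of these 15, 11 did not pass without the 3 arrays, Irx2, Ung, Pkdrej and Smyd2 being the exceptions, and 14 did not pass with the atrial mean in the model, where Pkdrej did (-0.18, adjusted p 0.0287).

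The fit was repeated within each diet, and these fits shared no array. In the 22 RW arrays 187 genes passed (2.01%: 161 higher, 1.73%, and 26 lower, 0.280%), and in the 22 DIO arrays 23 did (0.247%: 21 higher, 0.226%, and 2 lower, 0.0215%). The 19 genes that passed in both were 10.2% of the RW genes and 82.6% of the DIO genes, and among them were Acly, Aoc3, Car3, Cdo1, Fasn, Hp, Pck1, Scd1, Thrsp, Tmem45b and Ucp1. Of the 161 genes higher in RW, 156 (96.9%) had a positive difference in DIO, against 44.3% of all genes, with a median of 0.37 in RW and 0.14 in DIO. Of the 26 genes lower in RW, 25 (96.2%) were negative in DIO, against 55.7% of all genes. Car3 differed by 2.72 ± 0.52 in RW and 2.30 ± 0.35 in DIO, and Ucp1 by 3.40 ± 0.60 and 2.44 ± 0.45. Elovl3 differed by 1.24 in RW (adjusted p 0.0290) and by 0.01 in DIO (adjusted p 0.975). Its signal in the DIO arrays of both classes was only 4.34 to 5.16, around the cut for dim genes (4.90). The RW count fell to 61 without RW-MS replicates 2, 6 and 8 and rose to 293 without RW-SS replicate 7. The DIO count ran from 11 to 41 as single arrays were left out.

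**Figure D4:**
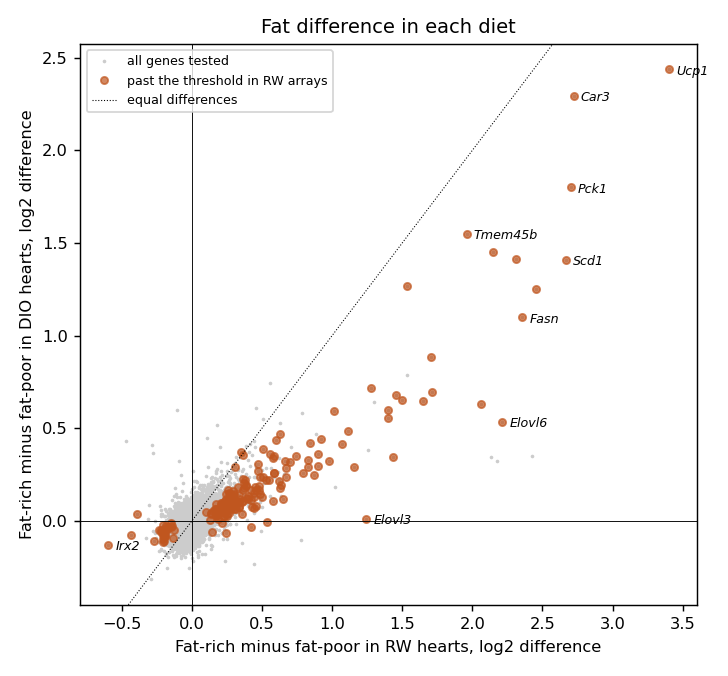
Log2 difference between fat-rich and fat-poor hearts in RW mice (x axis) and DIO mice (y axis) for all genes tested, with the 187 genes past the threshold in RW arrays filled. Most filled points lie on the same side of 0 in both diets and below the line of equal differences, with Elovl6 at 2.21 and 0.53 and Tmem45b at 1.96 and 1.55.

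Whether the fat difference itself depended on diet was tested as an interaction, and 0 genes passed (limma, 0.00%, lowest adjusted p 0.218, with 364 genes at an unadjusted p under 0.05). All 19 genes that rose at least 2-fold had a lower difference in DIO, against 49.8% of all genes. But so did Adipoq, which was 3.29 apart in RW and 2.53 apart in DIO hearts. The count was 6 without RW-MS replicate 4, and 1 without RW-SC replicate 4 and without DIO-SS replicate 8. The interaction with smoke also had 0 genes past the threshold (0.00%, lowest adjusted p 0.256, 301 at an unadjusted p under 0.05). The same 19 genes all had a lower difference in smoke than in air, so this pattern was not particular to diet. The share of all genes was not counted there. The step across the Adipoq median was also wider in the air groups (0.65 in RW-SC and 0.79 in DIO-SC) than in the smoke groups (0.17 to 0.39).

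With the Adipoq level itself in place of the classes, 3 genes had slopes that differed between the diets (0.0323% of genes), and all were fat synthesis genes that were less steep in DIO. Elovl6 rose by 0.61 per unit of Adipoq in RW and 0.24 in DIO hearts (difference -0.37 ± 0.07, adjusted p 0.0127). Scd1 rose by 0.81 and 0.51 (-0.30 ± 0.06, adjusted p 0.0146), and Fasn by 0.68 and 0.42 (-0.26 ± 0.05, adjusted p 0.0461). Car3, by contrast, rose by 0.87 and 0.89, a difference of 0.03 ± 0.04 (SE). The call of Elovl6 was lost without DIO-SC replicate 2 or 6, that of Scd1 without DIO-SC replicate 2, 6 or 7, and that of Fasn without any of 31 of the 45 arrays. At its highest, Fasn reached 11.55 in RW and 8.91 in DIO hearts. In most DIO arrays Elovl6 lay below 4.90, the mean under which genes were left out as dim. It was at 4.31 in DIO-MS 1 with Adipoq at 9.43, and at 4.05 in DIO-SS 5 with Adipoq at 7.83. Among RW arrays RW-MS 2 was as low (4.01). Whether a floor of the signal flattened the Elovl6 slope in DIO was not tested.

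**Figure D5:**
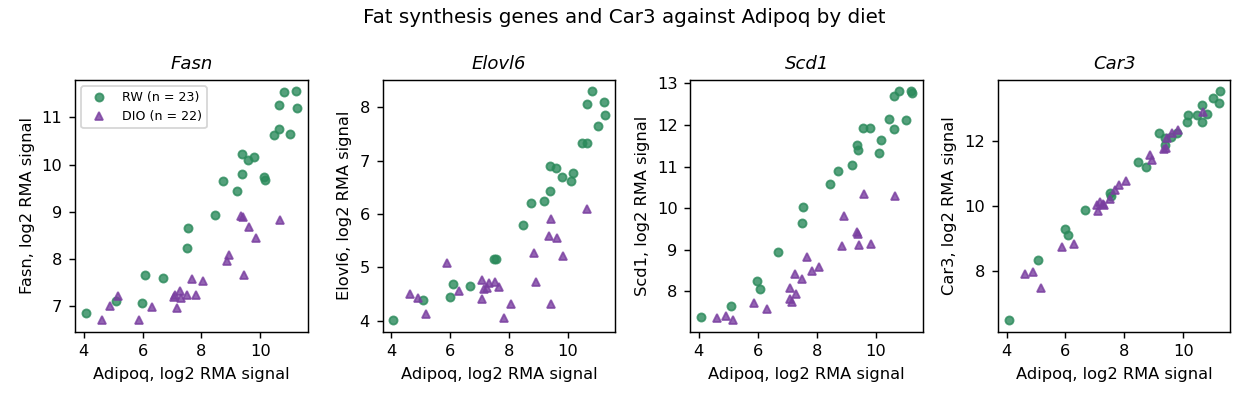
Fasn, Elovl6, Scd1 and Car3 (log2) against Adipoq (log2) for each RW array (circles, n = 23) and DIO array (triangles, n = 22). The DIO points of Fasn, Elovl6 and Scd1 rise less steeply than the RW points, with slopes of 0.42, 0.24 and 0.51 against 0.68, 0.61 and 0.81, and the Car3 points share a line.

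Between the groups, Adipoq did not differ past the threshold. It was 7.09 ± 2.18 (SD, n = 8) in DIO-SC and 8.99 ± 1.85 (n = 8) in RW-SC, a difference of -1.90 ± 0.93 (SE, adjusted p 0.144 over all genes, unadjusted 0.0479). For smoke against air it was -0.38 for RW-MS, 0.02 for RW-SS, 0.81 for DIO-MS and 1.15 for DIO-SS, with adjusted p from 0.359 to 0.990. The mean of the white fat list without Adipoq was 7.51 ± 0.34 in DIO-SC and 7.93 ± 0.63 in RW-SC (exact permutation test, two-sided, p 0.122, adjusted over 5 comparisons 0.61), and the other 4 comparisons had exact permutation p values of 0.353 to 0.987.

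The same arrays give the diet and smoke comparisons, so the values of fat genes are set beside each other without a count of overlap. In DIO-SC minus RW-SC, 1882 genes passed (20.2%), and 1853 with the Adipoq level in the model, 1508 of them in both. Scd1 was -2.88 there (adjusted p 2.45e-03) and -1.54 with Adipoq in the model (adjusted p 2.31e-06), against its fat difference of 2.04. Fasn was -2.18 and -1.06 with Adipoq, and passed both times. The model gave all groups the same slope on Adipoq, whereas the slopes of Scd1 and Fasn were called different between the diets (above). Their diet differences with Adipoq in the model can therefore vary with the Adipoq level. Retn was -1.33 (adjusted p 0.0207) and -0.58 with Adipoq (adjusted p 0.0526). Car3 was -1.69 (adjusted p 0.143) and -0.02 with Adipoq, and Ucp1 -1.30 (adjusted p 0.363) and 0.55. The counts for smoke against air were 638 (6.86%) and 742 with Adipoq for RW-MS, 2288 (24.6%) and 2488 for RW-SS, 423 (4.55%) and 550 for DIO-MS, and 2960 (31.8%) and 2925 for DIO-SS. The 20 genes that led the diet and smoke comparisons in earlier results of these arrays held 0 that passed between fat-rich and fat-poor hearts, against 6.15% of all genes, a share at which about 1 of 20 would pass. Tfrc, the transferrin receptor, was 9.58 ± 0.97 (SD, n = 22) in fat-poor and 9.52 ± 0.92 (n = 22) in fat-rich arrays (adjusted p 0.772), and Pdk4, which switches fuel use to fatty acids, 11.02 ± 0.83 and 10.94 ± 0.92 (adjusted p 0.677).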

How the data were processed

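Each of the 45 hearts gave 1 Affymetrix array from 3 µg of total RNA. The authors deposited 1 log2 value for each probe set and array, made with RMA per the submitters' processing notes, which give no version. RMA equalizes the distributions of the arrays, so levels are relative, and precision depends on how many arrays a comparison has. The labels conflict on the exposure (LPS in the growth protocol, cigarette smoke elsewhere), and cigarette smoke was taken as the exposure.

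Of 22690 probe sets, 20380 had 1 gene in the annotation, 691 had several and 1606 were not listed. The probe set with the highest mean stood for its gene (12393 genes), the lowest 25% of genes (mean below 4.90) were left out, and 9294 genes beside Adipoq were tested with limma 3.58.1 in R 4.3.3 (two-sided, 40.8 degrees of freedom), with group as a covariate and Benjamini-Hochberg adjustment at 0.05. Differences are on the log2 scale. The labels call the arrays of a group biological replicates, and no batch is named. Figures used Python 3.11.15 and matplotlib 3.10.9.

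On simulated data with 200 changed genes, 96% were recovered at 1.2-fold, 99% at 1.5-fold and 100% at 2-fold, with 4.48%, 4.81% and 3.38% false calls. The classes, lists and tests were chosen with earlier results of these data known. Named genes are the 15 largest rises and falls past the threshold without unnamed clones, up to 4 of each list by adjusted p, the 10 most like Adipoq and any list member, and others are said to be chosen after their values were seen. Alternatives changed the filter, probe set rule, variance model, weights, normalization, split, covariates, blocks and arrays. Some markers of fat cells are not analysed here.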

Additional observations from a re-analysis of the deposited data

Results flagged for a closer look

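In a gap test on each group (180 tests over the genes and list means read by array), chance alone flags about 1 in 20 groups. The tests are not independent, since many of these genes follow Adipoq and the list means hold some of them. The number of flags therefore cannot be judged against that rate. In this way 19 values stood out. Of these, 9 were in DIO-SS 8, the heart with the highest Adipoq of its group (10.66), each time as the highest of its 8 hearts: Retn at 7.51, Pck1 at 8.73, Cidec at 7.57, Cyp2e1 at 8.70, Fabp4 at 13.33, Ighm at 7.37, Cidea at 10.76, the white fat mean at 8.42 and the brown fat mean at 9.24. RW-SS 4, the heart of lowest Adipoq in its group (5.08), was lowest and far from the others in Ucp1 (4.49, next 8.66), Car3 (8.35) and Scd1 (7.63).

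Lymphocyte signals stood out in RW-SC 1, with Cd79b at 8.24 and a lymphocyte mean of 7.32, and in RW-MS 7, with a lymphocyte mean of 7.96 against 6.21 in the next heart. The remaining such values were Sln at 11.56 in RW-SC 4 (lowest), Irx1 at 6.61 in DIO-MS 1 (lowest) and at 6.98 in DIO-SS 5 (highest), and Pdk4 at 11.20 in DIO-MS 2 (lowest).

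Among 1247 probe sets with several genes or none in the annotation, which no comparison of the report used, 43 (3.45%) were higher in fat-rich hearts and 18 (1.44%) lower, against 4.11% and 2.04% of the genes. Of these, 3 probe sets that the annotation gives to several immunoglobulin kappa light chain segments at once, singled out after their values were seen, were higher by 2.01 to 2.21 (limma, adjusted p 0.00779 to 0.00938 over the 1247). They did not pass without RW-MS replicates 2, 6 and 8 (1.93 to 2.14, adjusted p 0.0556 to 0.0567) or with the atrial mean in the model (1.81 to 1.97, adjusted p 0.168). The largest rise among the 1247, 2.46 (adjusted p 2.62e-06), was that of a probe set with no gene in the annotation. It passed without the 3 arrays (2.16, adjusted p 3.29e-05) and with the atrial mean (1.90, adjusted p 4.99e-04).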

How the results depend on the processing

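The 15 largest rises kept their direction in every alternative tried, and 53 of 58 genes followed through the alternatives passed in all 44 fits that left out 1 array, the exceptions being Tnfaip2, Apc2, Dio2, Pdgfra and Dcn. With the atrial mean in the model 32 of the 58 no longer passed, and without RW-MS replicates 2, 6 and 8, 28 did not, among them Ighm, Irx1, Slc27a2 and Dio2 in both. No result changed sign past the threshold. The count of 572 genes became 1419 with Adipoq as a continuous term, 79 with the atrial mean in the model, 140 without RW-MS replicates 2, 6 and 8, 124 without the group RW-MS and 196 without the group DIO-SC, and leaving out single arrays gave 380 (DIO-SC 2) to 763 (DIO-SS 5). In the RW hearts 187 became 314 with array weights, 540 with Adipoq as a continuous term and 61 without the 3 arrays, and ran from 129 to 293 with single arrays left out. In the DIO hearts 23 became 13 with a trended and robust variance, 47 with array weights and 245 with continuous Adipoq, and ran from 11 to 41, moving by over 1.5 times without DIO-SC 2, 3, 5, 6, 7 or 8, DIO-MS 2, or DIO-SS 2 or 5. The diet interaction had 3 genes with continuous Adipoq and 0 to 6 with single arrays left out. The 423 genes of DIO-MS minus DIO-SC became 714 with array weights and 221 (without DIO-MS 5) to 443, with 249 without DIO-SC 5 and 248 without DIO-MS 6. The cause of these shifts was not tested.

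With the replicate number as a block, 778 genes passed (513 higher, 265 lower) over all hearts and 64 within RW, and with the last digits of the mouse number in the labels as a block 454 did (318 higher, 136 lower). Ighm lost its call under both (adjusted p 0.0640 and 0.134), Ccl7 under the first only, Gngt1 and Gipc3 under both, and Dio2, Pdgfra, Morn3, Pdx1 and Tnfaip2 under the second only. Arrays of the same number in different groups did not deviate together (median correlation -0.005 over 106 pairs, against -0.003 over 736 pairs of other numbers), nor did arrays of the same mouse number (median -0.027 over 106 pairs, against 0.002), and the labels do not say that a number marks a shared litter or day.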
